A study of Homo sapiens with 6 samples.

Results

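Chromosome 18 was followed gene by gene, in genome order, in the RNA of 143B cells, a human osteosarcoma line. The deposited table of 54308 rows carries no coordinates but lists its genes in chromosome order, and the rows from USP14 to PARD6G were taken as chromosome 18. That stretch held 977 rows, of which 593 had no value in any library, and the 287 with at least 2 values in each group are the members described here. They were 84 of the short arm and 203 of the long arm, of 19306 genes tested in all. The series compared 3 vector control libraries (VC), from cells of control genotype transfected with a vector plasmid, with 3 libraries of cells knocked out for CNTNAP4 (KO), a neurexin-family surface receptor. Both groups share the 143B background, its medium and the transfection, which the labels give as 48 h. The study's methods describe one plasmid carrying a guide RNA with Cas9 and a red fluorescent reporter, sorting of single cells 72 h after transfection and the expansion of 2 KO colonies, without saying which colony gave which KO library. What belongs to a colony and what follows the deletion therefore cannot be told apart here. CNTNAP4 had a value in 1 library only, VC 3, at a log2 signal of −7.18, so its own RNA checks no label.

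Chromosome 18 is a chromosome of low gene density. Its short arm begins with genes for proteasome function, mRNA export and thymidylate synthesis, and its long arm carries the SMAD2, SMAD4 and SMAD7 genes of transforming growth factor beta (TGF-beta) signalling, the desmosomal and classical cadherins, BCL2 and a cluster of serine protease inhibitors (SERPINB). Neighbouring genes mostly have promoters of their own, though some overlap or share reads. Their levels come from the same libraries, so members are not counted here as independent of each other. Tumour lines such as 143B often carry rearranged chromosomes. DNA was not analysed here.

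The order of the rows was checked against annotation. Of the 287 members, 276 matched a RefSeq gene and all 276 were on chromosome 18, with 1 neighbouring pair out of order. Of these members 216 were protein-coding and 52 long noncoding RNAs, and 11 members did not match. Positions below are those of GENCODE release 29 on GRCh38. RefSeq held a promoter for 228 members. The 250 bases before the start of the first and the last protein-coding member of each arm are shown, because these 4 genes mark the ends of the stretches compared. They are RefSeq sequences of GRCh38.p14, each written 5′ to 3′ on the strand of its gene, and capitals mark GC boxes (GGGCGG on either strand) and CCAAT boxes (CCAAT on either strand). USP14 opens the short arm (chr18:158307-158556, plus strand), ZNF519 closes it (chr18:14132436-14132685, minus strand), ROCK1 opens the long arm (chr18:21111814-21112063, minus strand) and PARD6G closes it (chr18:80247515-80247764, minus strand).
USP14: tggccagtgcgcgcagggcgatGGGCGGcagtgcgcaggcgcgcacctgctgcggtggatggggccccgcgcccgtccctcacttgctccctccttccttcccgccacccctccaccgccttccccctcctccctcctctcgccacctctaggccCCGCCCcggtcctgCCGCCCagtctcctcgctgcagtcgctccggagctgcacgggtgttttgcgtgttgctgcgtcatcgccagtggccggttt
ZNF519: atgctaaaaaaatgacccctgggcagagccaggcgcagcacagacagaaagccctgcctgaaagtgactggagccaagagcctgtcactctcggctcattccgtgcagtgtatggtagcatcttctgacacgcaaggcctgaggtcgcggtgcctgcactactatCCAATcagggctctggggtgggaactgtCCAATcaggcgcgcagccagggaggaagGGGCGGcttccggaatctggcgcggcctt
ROCK1: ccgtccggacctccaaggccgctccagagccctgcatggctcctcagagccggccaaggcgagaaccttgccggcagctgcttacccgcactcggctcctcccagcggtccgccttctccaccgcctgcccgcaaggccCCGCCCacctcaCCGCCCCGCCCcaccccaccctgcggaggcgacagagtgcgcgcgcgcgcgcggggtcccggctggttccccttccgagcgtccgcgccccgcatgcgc
PARD6G: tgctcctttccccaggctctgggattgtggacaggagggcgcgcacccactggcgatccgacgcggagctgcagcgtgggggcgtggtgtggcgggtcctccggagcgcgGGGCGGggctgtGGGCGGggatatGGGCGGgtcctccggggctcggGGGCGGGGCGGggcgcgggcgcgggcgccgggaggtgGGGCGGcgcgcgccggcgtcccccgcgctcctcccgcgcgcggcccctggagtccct
The USP14 and ROCK1 windows held 3 GC boxes each and PARD6G held 6, while ZNF519 held 1 GC box and 2 CCAAT boxes. Overlapping matches were counted separately, as in ROCK1 and PARD6G. A GC box was present in 58.9% of the 56 promoters of the first stretch defined below and in 60.5% of the 172 of the rest, beside 62.6% of the promoters of all tested genes and 42.3% of all promoters in the table. For CCAAT the shares were 19.6% and 28.5%, beside 34.2% and 33.0%, and for TATAAA they were 5.36% and 6.40%, beside 6.37% and 11.1%.

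All levels are log2 signals, quantile-normalized across the libraries by the submitters, and a difference is the KO mean minus the VC mean on that scale. The 6 libraries held between 20333 and 21041 values each. Read totals were not given, so the depth is unknown and no counting interval is given. The median of the 19306 differences was −0.13, so that differences on chromosome 18 are also given relative to it. Of the 10 mesenchymal and osteosarcoma markers 8 had values in all 6 libraries, with VIM between 10.3 and 10.9, whereas COL1A2 stood between −5.72 and −4.59, and SP7 and BGLAP had gaps. The summed level of the whole mesenchymal list was 10.5 to 10.7 in VC and 10.8 to 11.1 in KO, and that of 5 epithelial genes was 9.17 to 9.32 and 9.11 to 9.25. The epithelial sum came from KRT8 and KRT18, with EPCAM between 0.84 and 1.79 and CDH1 with 1 value. Blood genes summed to −4.35 to −2.82 in VC and −7.12 to −4.35 in KO, and endothelial genes to −5.50 to −4.41 and −4.84 to −4.11. Empty cells add nothing to a sum. CD3E had values in all VC libraries but only in KO 2 among KO, so the blood sums of KO 1 and KO 3 are PTPRC alone. The part of the marker genes in the results below was not tested. In bulk RNA, fewer cells expressing a gene and less RNA per cell cannot be told apart. The study's methods call the libraries of a group independent RNA samples of clonal cells and biological replicates, without saying whether they came from separate cultures, so tests measure the spread between these RNA samples.

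The short arm stood lower in KO than in VC, and the median of the long arm was close to that of the whole table. The median difference was −0.48 over the 84 short-arm members and −0.09 over the 203 long-arm members. Relative to the median of all genes tested these were −0.35 and 0.03. On the linear scale the short-arm median corresponds to 71.9% of the VC signal. The interquartile range of the short-arm differences ran from −0.81 to 0.00, and 62 of 84 were below 0, beside 122 of 203 on the long arm and 59.8% of all genes tested. These same differences had drawn attention to the chromosome and were used to place the border below, so they are given as a description, without a test. The size depends on the treatment of low signals: with 1 added to the linear signal the medians were −0.10 for the short arm, −0.02 for the long arm and −0.02 for all genes.

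A gene is said to have fallen or risen where limma's moderated test gave a Benjamini-Hochberg adjusted p under 0.05 over all 19306 genes. By that criterion 74 members fell, against 19.8% of all genes tested, and 34 rose, against 13.1%. On the short arm 36 fell and 5 rose. On the long arm 38 fell and 29 rose, which is 18.7% and 14.3% of its members. Among members with 6 values every KO library was below every VC library in 46 of 73 on the short arm and 75 of 186 on the long arm, beside 36.7% of all such genes. Every KO library was above every VC library in 8 of 73 and 43 of 186, beside 22.6%. Because the chromosome was selected on this contrast, nothing is read from these shares. The counts depend on single libraries: 13 members fell when VC 3 was left out and 96 when KO 1 was left out. Of the 34 genes of the lists and extremes that passed, 9 still passed without VC 3, and these 9 passed whichever library was left out: THOC1, NDC80, EMILIN2, TGIF1, DLGAP1-AS1, PTPRM, NPC1, TCF4 and SERPINB2.

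Cutting the ordered differences into stretches of constant level, with a penalty for each cut, gave 2 blocks, and the border of the reported fit lay inside the short arm. The first block ran from USP14 to LOC105371998, with 68 members over 12.3 Mb (chr18:158383-12432238), and its median difference was −0.53, or −0.19 with 1 added to the linear signal. The second ran from SPIRE1 to PARD6G, with 219 members over 67.8 Mb (chr18:12446512-80247546), and its median was −0.10. In the first block 52 of 68 members were below 0, 35 fell and 5 rose, and in the second 132 of 219 were below 0, 39 fell and 29 rose. The members just inside the border were PRELID3A, with a difference of −0.47, and LOC105371998, with −0.62 and only 2 KO values. Those just outside were SPIRE1, with 0.37, and PSMG2, with 0.00. The 16 short-arm members beyond the border had a median of −0.22, and of −0.05 for the 8 in the upper 50% of mean signal. Of these 16, only SEH1L, a nuclear pore component, fell (−0.34), and none rose.

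**Figure D1:**
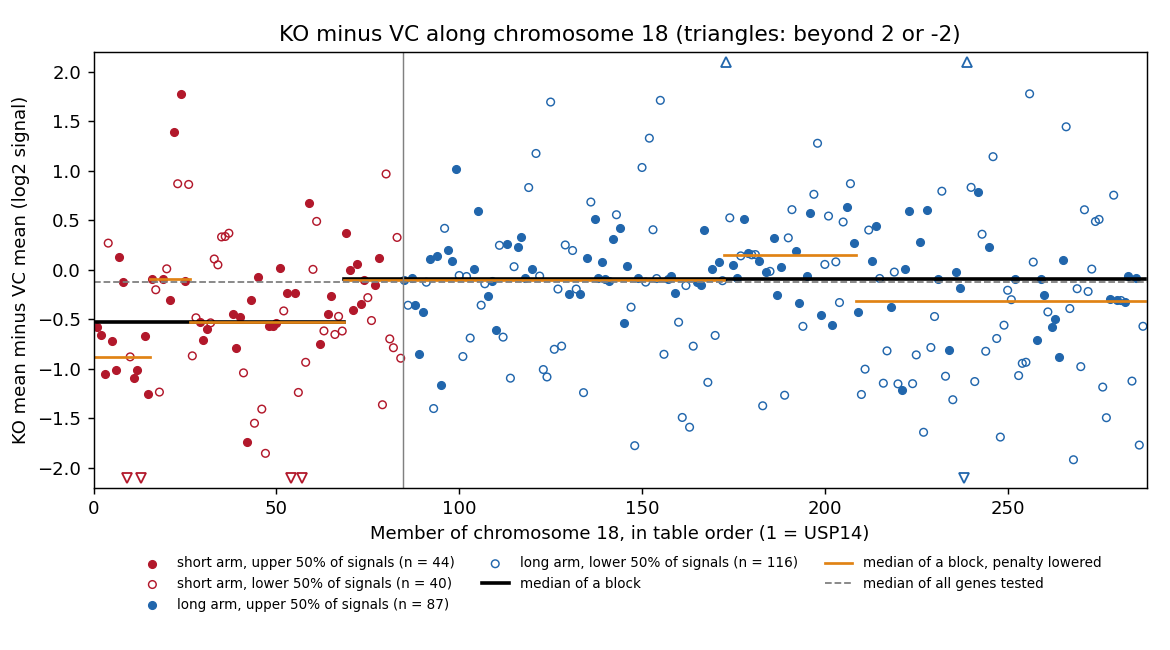
Difference between KO and VC means (log2 signal) for each of the 287 members, in table order, by arm and by whether the mean signal is in the upper 50%; the grey upright line is the end of the short arm. The black steps are the medians of the 2 blocks, −0.53 and −0.10, the orange steps those of the 6 blocks found with the penalty lowered, and the dashed line is the median of all genes tested, −0.13.

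The place of the border moved with the way it was drawn. With only the upper 50% of the signals it fell after 29 members, just before RAB31. With a library left out it lay after 63 to 85 members, reaching GATA6-AS1 without VC 1 and GATA6 without KO 1, both on the long arm. With each KO library taken alone against VC, it followed 67 members in KO 1, 15 in KO 2 and 88 in KO 3, the last again at GATA6 on the long arm. A penalty raised by a factor of 2 left no border. Lowering it by the same factor split the first block around a short stretch that did not share its level. The first 15 members, USP14 to EMILIN2, had a median of −0.88, with 9 that fell and none that rose. The next 11, from LPIN2 to LOC105371967 over 0.691 Mb, had a median of −0.10, with 1 that fell and 4 that rose. The 42 from AKAIN1 to LOC105371998 returned to −0.53, with 25 that fell and 1 that rose. In the same order, the medians of these stretches in the upper 50% of signal were −0.71, −0.10 and −0.48. The 36 members of the first block in the upper 50% of mean signal had a median of −0.51, and 24 of them fell, 3 rose and 9 did neither. Over all genes tested 19.8% fell and 13.1% rose, so that 6354 of 19306 passed. With the upper 50% of signals fitted alone, 5702 of 9653 genes passed. Nothing is read from the counts of these stretches.

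All 3 KO libraries carried the lower level of the first block. The block was drawn on the mean of these same libraries minus VC. Low levels in them were thus largely fixed in advance and are a description, not a replication. Over its members with 6 values, the median deviation from the VC mean was −0.40 in KO 1, −0.59 in KO 2 and −0.52 in KO 3. The VC libraries stood between −0.01 and 0.01. For the long arm the KO medians were −0.04, −0.12 and −0.14, and for all genes tested −0.04, −0.16 and −0.15. The VC medians ran from −0.01 to 0.02 on the long arm and from −0.03 to 0.03 over all genes tested. KO 1 was the nearest to VC of the KO libraries in each of these sets. In each of them, not on the first block alone, the 2 groups did not overlap. Each member with 6 values was also centred on its own mean over the 6 libraries. On that scale, the second-block median minus the first-block median was −0.20 ± 0.05 in VC (SD, n = 3). In KO it was 0.19 ± 0.04 (SD, n = 3). The 3 VC values of that contrast were −0.21, −0.15 and −0.24 and the 3 KO values 0.15, 0.24 and 0.18. Opposite signs in the groups follow from the centring and from blocks drawn on KO minus VC, so nothing is read from them. Through the centring this contrast uses all 6 libraries, though no other chromosome, and it rests on the same border.

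**Figure D2:**
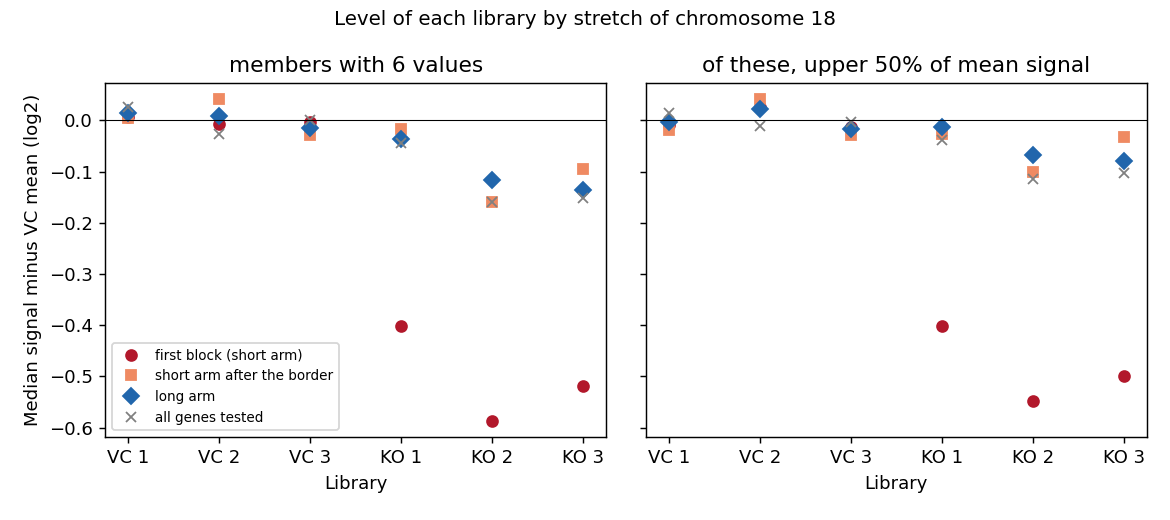
Median deviation of each library from the gene's VC mean (log2 signal) for the first block, the short arm after the border, the long arm and all genes tested, over members with 6 values (left) and those in the upper 50% of mean signal (right). The first block stands at −0.40, −0.59 and −0.52 in the 3 KO libraries, below each of the other sets in the same library. It was drawn on the KO minus VC means of these same libraries.

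The genes at the tip of the short arm, where the median difference was lowest, serve quite different functions. TYMS encodes thymidylate synthase, which makes the thymidine nucleotide for DNA synthesis. Its level was 8.02, 8.05 and 8.02 in VC and 7.34, 6.74 and 6.97 in KO (chr18:657604-673578). The groups were far apart, with KO 2 the lowest, and TYMS fell by 1.01 ± 0.16 (SE). NDC80, an outer kinetochore protein that holds microtubules in mitosis, stood at 5.67, 5.77 and 5.66 in VC and 4.97, 4.47 and 4.64 in KO (chr18:2571511-2616635). It fell by 1.01 ± 0.14 (SE), with the same order of the KO libraries. METTL4, a methyltransferase gene that lies head to head with NDC80, was at 2.48, 2.63 and 2.57 in VC and 1.78, 1.19 and 1.42 in KO (chr18:2537525-2571509) and fell by 1.10 ± 0.16 (SE). EMILIN2, an extracellular matrix glycoprotein, was at 3.41, 3.26 and 3.36 in VC and 2.32, 1.85 and 2.10 in KO. It closed this run of 15 members and fell by 1.26 ± 0.14 (SE).

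Around these, other genes at the tip of the chromosome fell as well. USP14, a deubiquitinase of the proteasome, was at 5.21, 5.34 and 5.25 in VC and 4.79, 4.59 and 4.69 in KO and fell by 0.58 ± 0.08 (SE). THOC1, of the mRNA export complex THO, fell by 0.66 ± 0.09 (SE), from levels of 4.28 to 4.42 in VC to 3.57 to 3.80 in KO. SMCHD1, a chromatin protein of X inactivation, fell by 0.67 ± 0.10 (SE), and COLEC12, a scavenger receptor of the collectin family, by 1.06 ± 0.13 (SE). In these 4 every KO library was below every VC library, as in 36.7% of all tested genes with 6 values. Nothing is read from this. Neighbours differed all the same. YES1, a SRC-family kinase, was 4.84, 4.92 and 4.87 in VC and 4.61, 4.84 and 4.80 in KO, a difference of −0.13 ± 0.09 (SE) that did not pass. ENOSF1, which overlaps TYMS on the opposite strand, stood at 3.20 to 3.24 in VC and 3.24 to 3.55 in KO, a difference of 0.12 ± 0.11 (SE), whereas TYMSOS, a noncoding gene beside TYMS, fell by 0.71 ± 0.18 (SE). The library kit keeps strand, but whether the counting used it is not given in the sources used here, so overlapping genes such as these are uncertain.

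The stretch from LPIN2 held 4 of the 5 members of the first block that rose. TGIF1, a homeodomain repressor of TGF-beta target genes, was at 2.22, 2.22 and 2.20 in VC and 3.35, 4.01 and 3.47 in KO (chr18:3411608-3459978). Every KO library lay more than a log2 unit above VC, and TGIF1 rose by 1.40 ± 0.18 (SE). The noncoding DLGAP1-AS1 was at 1.30, 0.94 and 1.05 in VC and 2.73, 3.09 and 2.81 in KO and rose by 1.78 ± 0.14 (SE). GAPLINC, another noncoding RNA between them, rose by 0.87 ± 0.10 (SE), and LOC105371967, a noncoding RNA of low signal that closes the stretch, by 0.86 ± 0.19 (SE). LPIN2, a phosphatidate phosphatase, had overlapping groups and a difference of −0.10 ± 0.14 (SE). The myosin regulatory light chain genes MYL12A and MYL12B, which are near-identical neighbours that share reads and are therefore uncertain, differed by −0.10 ± 0.06 and −0.31 ± 0.08 (SE), and only MYL12B fell.

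Further along the block the lower level returned. PTPRM, a receptor tyrosine phosphatase of cell contacts, was at 3.09, 3.05 and 3.06 in VC and 2.36, 2.21 and 2.27 in KO (chr18:7566782-8406861) and fell by 0.79 ± 0.07 (SE). MTCL1, which crosslinks microtubules, was at 3.56, 3.43 and 3.54 in VC and 2.41, 0.91 and 1.99 in KO. Its KO libraries spread widely, with KO 2 far below the other two, and it fell by 1.74 ± 0.39 (SE). TWSG1, a secreted binder of bone morphogenetic proteins (BMP), was at 3.96, 4.16 and 4.05 in VC and 3.52, 3.54 and 3.41 in KO and fell by 0.56 ± 0.08 (SE). Several genes of this stretch stood close together: EPB41L3, a membrane skeleton protein, fell by 0.60, PPP4R1, a phosphatase subunit, by 0.54, LAMA1, a laminin chain, by 0.44 and TUBB6, a beta-tubulin, by 0.45. PIEZO2, a mechanically gated channel of low signal here, fell by 1.24 ± 0.20 (SE).

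The 2 genes of the mitochondrial list that lie in the block fell. NDUFV2, a complex I subunit, was at 5.20, 5.30 and 5.21 in VC and 5.01, 4.90 and 4.88 in KO, a fall by 0.31 ± 0.07 (SE). AFG3L2, a protease of the inner mitochondrial membrane, fell by 0.26 ± 0.07 (SE). Against them, CHMP1B, of the membrane-cutting ESCRT-III complex, rose by 0.68 ± 0.11 (SE), from 3.28, 3.36 and 3.21 in VC to 3.85, 4.15 and 3.87 in KO. RAB31, a vesicle GTPase, had overlapping groups and a difference of 0.02 ± 0.07 (SE), and VAPA, an endoplasmic reticulum tether, had −0.24 ± 0.07 (SE), which did not pass. Differences of both signs thus occurred in the block. Of its 68 members 35 fell and 5 rose, beside 19.8% and 13.1% of all genes tested, and 28 did neither. A member that did not pass is not shown to have another level, and nothing is read from these counts.

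Right after the border the differences had both signs. SPIRE1, an actin nucleator, was at 2.68, 2.75 and 2.79 in VC and 2.92, 3.27 and 3.16 in KO (chr18:12446512-12658134), and its difference of 0.37 ± 0.11 (SE) did not pass. PSMG2, a proteasome assembly chaperone, was at 4.90, 5.01 and 4.93 in VC and 4.89, 4.96 and 4.99 in KO, with overlapping groups. PTPN2, a tyrosine phosphatase, differed by 0.06 ± 0.06 (SE), CEP192, a centrosome scaffold, by −0.11 ± 0.09 (SE) and RNMT, the mRNA cap methyltransferase, by 0.12 ± 0.08 (SE). CEP76, a centriole protein whose gene overlaps PSMG2 on the opposite strand, differed by −0.40 ± 0.14 (SE) and did not pass. SEH1L was at 4.47, 4.59 and 4.45 in VC and 4.25, 4.05 and 4.19 in KO, and fell by 0.34 ± 0.09 (SE). LINC01444, the last member of the arm, had 2 VC values and overlapping groups.

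In all, 9 groups of genes by known role, 75 genes in all, of which 62 were members, were described side by side. Of the 11 of these in the first block 10 were below 0, 9 fell and TGIF1 rose, with a median difference of −0.58. Of the 51 in the second block 22 were below 0, 7 fell and 10 rose, with a median of 0.03. Over all genes tested 19.8% fell and 13.1% rose. The medians over all members of the blocks were −0.53 and −0.10.

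**Figure D3:**
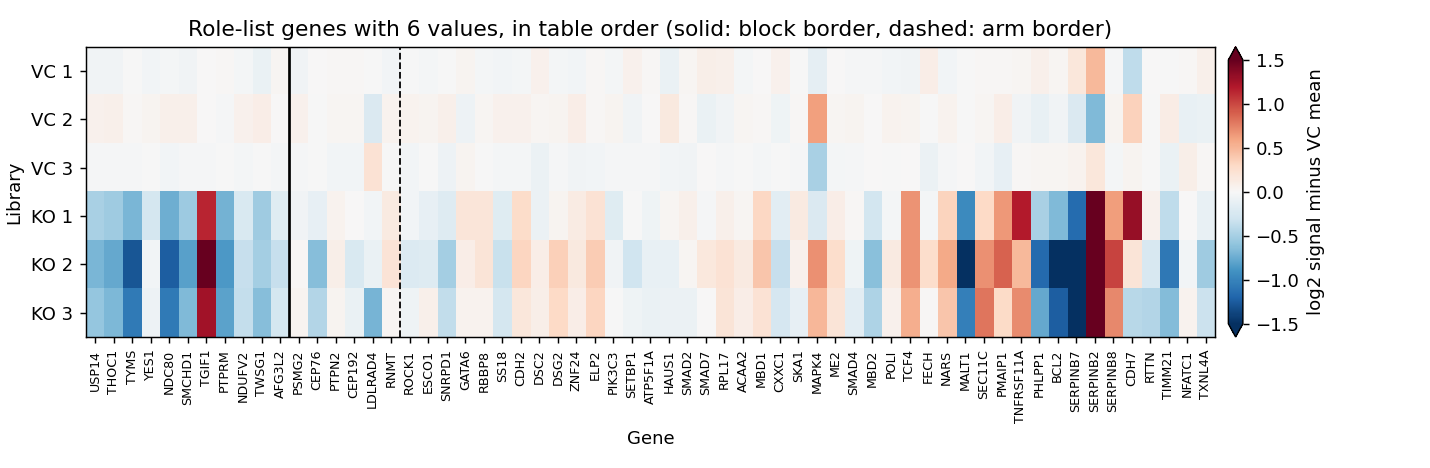
Deviation from the VC mean (log2 signal, colour limited to 1.5 on either side) for the role-list genes with 6 values, in table order, in each library; the solid line is the block border and the dashed line the end of the short arm. Left of the solid line 9 of 11 genes fell in KO and TGIF1 rose, and right of it colours of both signs occur.

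Among the 10 members of cell division and DNA, TYMS and NDC80 fell, both in the first block, and none of the 8 in the second block passed. HAUS1, a subunit of the spindle complex augmin, was at 4.97, 5.22 and 5.03 in VC and 5.10, 4.96 and 4.99 in KO, a difference of −0.06 ± 0.10 (SE). SKA1, a kinetochore protein like NDC80, was at 3.09, 3.11 and 3.07 in VC and 3.22, 3.16 and 2.97 in KO, a difference of 0.03 ± 0.09 (SE). In both the groups overlapped. RBBP8, a DNA end-resection factor, differed by 0.14 ± 0.07 (SE), ESCO1, a cohesin acetyltransferase, by −0.08 ± 0.09 (SE) and POLI, a translesion polymerase, by 0.05 ± 0.08 (SE). RTTN, a centriole protein, differed by −0.21 ± 0.14 (SE).

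The TGF-beta and BMP group had 6 members, and none of the 4 outside the first block passed. SMAD2, a receptor-activated transcription factor of the pathway, was at 1.17, 1.17 and 1.10 in VC and 1.23, 1.17 and 1.06 in KO. SMAD4, the common partner of these factors, was at 2.98, 3.04 and 2.98 in VC and 3.02, 2.93 and 2.84 in KO. SMAD7, the inhibitor of the pathway, was at 2.68, 2.50 and 2.60 in VC and 2.58, 2.75 and 2.59 in KO. The groups overlapped in each of the 3 SMAD genes, and the differences were 0.01 ± 0.08, −0.07 ± 0.08 and 0.05 ± 0.09 (SE). LDLRAD4, a membrane inhibitor of the pathway, was near the bottom of the scale with overlapping groups. The 2 members that passed, TWSG1 and TGIF1, lie in the first block and moved in opposite directions.

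Of 11 cadherins 5 were members. CDH2, the N-cadherin of mesenchymal cells, was at 4.82, 4.91 and 4.82 in VC and 5.13, 5.18 and 5.03 in KO (chr18:27950966-28177446). The groups did not overlap, and CDH2 rose by 0.26 ± 0.08 (SE). DSG2 and DSC2, the desmosomal cadherins of many cell types, had overlapping groups and differed by 0.23 ± 0.10 and 0.03 ± 0.09 (SE). DSC3 and CDH7 lay under −5 in every library that gave a value, where a difference rests on very little signal. Of 10 SERPINB genes 3 were members, and all 3 passed, beside 19.8% of all genes tested that fell and 13.1% that rose. SERPINB2, an inhibitor of plasminogen activators, was at −4.14, −5.29 and −4.46 in VC and −1.02, −0.76 and −1.93 in KO, and rose by 3.39 ± 0.43 (SE). SERPINB8 rose by 0.79 ± 0.12 (SE), from 2.33 to 2.40 in VC to 2.98 to 3.37 in KO. SERPINB7, in contrast, fell by 2.08 ± 0.53 (SE), from −2.13 to −1.74 in VC to −5.11 to −3.06 in KO. The members of one cluster therefore moved in both directions, and 2 of the 3 were of low signal. With 1 added to the linear signal, the difference of SERPINB2 was 0.47 and that of SERPINB7 −0.24.

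The 4 genes of cell death and survival all passed, 2 in each direction. BCL2, the survival protein, was at 0.68, 0.59 and 0.67 in VC and −0.02, −1.40 and −0.59 in KO (chr18:63123346-63320128) and fell by 1.31 ± 0.35 (SE). MALT1, a protease of NF-kappaB signalling, was at 2.65, 2.66 and 2.67 in VC and 1.70, 1.01 and 1.63 in KO and fell by 1.21 ± 0.20 (SE). In both, KO 2 was the lowest library. PMAIP1, the BH3-only protein NOXA that opposes BCL2-type survival proteins, was at 4.23, 4.31 and 4.09 in VC and 4.85, 5.09 and 4.49 in KO and rose by 0.60 ± 0.17 (SE). TNFRSF11A, the receptor RANK of osteoclast biology, was at 0.22, 0.14 and 0.21 in VC and 1.38, 0.67 and 0.90 in KO and rose by 0.79 ± 0.19 (SE).

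Of the 7 kinases and phosphatases, PTPRM in the first block and PHLPP1 in the second fell. PHLPP1, a phosphatase of AKT, was at 1.90, 1.72 and 1.85 in VC and 1.34, 0.65 and 1.06 in KO, a fall by 0.81 ± 0.19 (SE). ROCK1, a kinase of actomyosin contraction that opens the long arm, was at 3.49, 3.55 and 3.46 in VC and 3.46, 3.30 and 3.44 in KO (chr18:20946906-21111851). Its groups lay next to each other without overlapping, and the difference of −0.10 ± 0.08 (SE) did not pass. PIK3C3, the class III phosphoinositide kinase of autophagy, differed by −0.08 ± 0.08 (SE), and MAPK4 was near the bottom of the scale with overlapping groups.

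Chromatin and transcription genes moved in both directions on the long arm. TCF4, a basic helix-loop-helix factor, was at 2.03, 2.14 and 2.10 in VC and 2.77, 2.76 and 2.63 in KO (chr18:55222331-55664787) and rose by 0.63 ± 0.08 (SE). The methyl-CpG-binding genes MBD1 and MBD2 went opposite ways. MBD1 rose by 0.32 ± 0.08 (SE), from 3.62 to 3.67 in VC to 3.87 to 4.07 in KO, and MBD2 fell by 0.46 ± 0.11 (SE), from 3.94 to 3.96 in VC to 3.32 to 3.68 in KO. SS18, a subunit of BAF chromatin remodelling complexes, fell by 0.26 ± 0.08 (SE). GATA6, a zinc finger factor, and NFATC1, a calcineurin-dependent factor, differed by 0.11 ± 0.08 and 0.01 ± 0.08 (SE). Of the group's 10 members 3 fell, SMCHD1 of the first block among them, 2 rose and 5 did neither.

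No member of the RNA and protein machinery in the second block passed as lower. SNRPD1 missed the threshold narrowly, with an adjusted p of 0.052 in limma's moderated test. NARS, the cytosolic asparaginyl-tRNA synthetase, was at 6.30, 6.39 and 6.31 in VC and 6.66, 6.90 and 6.75 in KO and rose by 0.44 ± 0.09 (SE). SEC11C, of the signal peptidase, rose by 0.60 ± 0.15 (SE), and ELP2, of the Elongator complex, by 0.31 ± 0.07 (SE). RPL17, a ribosomal protein, was at 9.53, 9.40 and 9.44 in VC and 9.54, 9.67 and 9.65 in KO, a difference of 0.16 ± 0.08 (SE) that did not pass. Ribosomal protein genes have near-identical copies elsewhere, so its level is uncertain. The spliceosomal genes SNRPD1 and TXNL4A differed by −0.36 ± 0.11 and −0.32 ± 0.13 (SE) and did not pass. Among mitochondrial genes of the long arm, TIMM21, of the import machinery, was at 4.09, 4.21 and 3.99 in VC and 3.72, 3.02 and 3.44 in KO and fell by 0.70 ± 0.19 (SE). ATP5F1A, the alpha subunit of ATP synthase, was at 6.15, 6.14 and 6.11 in VC and 6.07, 6.02 and 6.03 in KO, and ME2, ACAA2 and FECH differed by 0.08 to 0.19, none past the test.

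Outside these groups, NPC1, the lysosomal cholesterol transporter, was at 2.89, 2.82 and 2.91 in VC and 3.62, 4.13 and 3.92 in KO and rose by 1.02 ± 0.14 (SE). TSHZ1, a zinc finger factor, was at 2.27, 2.17 and 2.23 in VC and 1.66, 0.90 and 1.45 in KO and fell by 0.88 ± 0.21 (SE). CABLES1, a cyclin-dependent kinase partner, had a large difference, −1.17 ± 0.38 (SE), that did not pass, with KO 2 at −0.11 and KO 1 at 1.36. PARD6G, a cell polarity protein and the last member, was at 0.34, 0.27 and 0.47 in VC and 0.23, −0.59 and −0.29 in KO, a difference of −0.57 ± 0.22 (SE) that did not pass. With the penalty lowered, the end of the long arm from WDR7 on formed a block of 79 members with a median of −0.31. In the upper 50% of signal its median was −0.09, beside −0.31 over all 79. The 36 members before it, LOC107985147 to TXNL1, had a median of 0.15, and of 0.05 in the upper 50% of signal. Of these 36, 8 rose and 2 fell, beside 13.1% and 19.8% of all genes tested. Both stretches were cut on these same differences, so nothing is read from the counts.

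Beside other chromosomes the short arm lay at the low end and the long arm in the middle. None of the 22 other chromosomes had a median difference as low as the short arm, over all genes tested or over the upper 50% of signals, where the short arm stood at −0.37. Nearest were chromosome 14, with −0.38 and −0.35 on these scales, and chromosome 8, with −0.32 and −0.28. Of the 22, 14 were below the long arm over all genes and 16 over the upper 50%. Chromosome 22 was the only one above 0, at 0.30. Chromosome 18 taken whole ranked 6th from the lowest with a median of −0.19 over the 278 tested genes that RefSeq places on it. Over the upper 50% of signals it ranked 10th with −0.10. These genes were drawn by annotation, as for the other chromosomes, and not by the rows from USP14 to PARD6G. Chromosomes differ in gene number, and an arm of 84 members is a smaller and more variable set than a whole chromosome. The other chromosomes were not split into arms. Chromosome 18 was chosen with this contrast known, so the place of its short arm is a description.

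**Figure D4:**
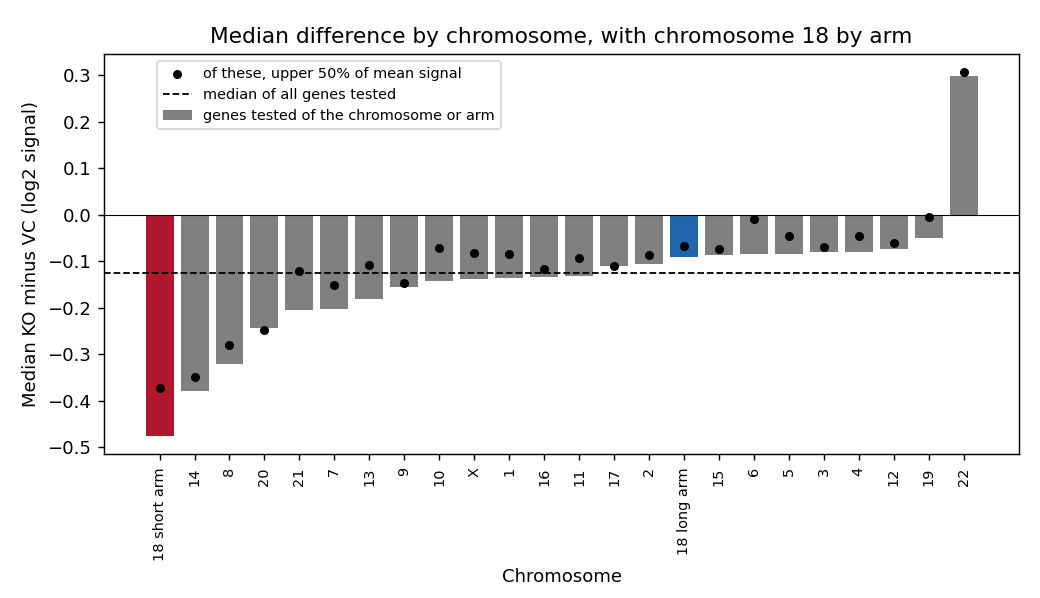
Median of KO minus VC differences (log2 signal) over the genes tested of each chromosome, with chromosome 18 split into its arms; bars are all genes tested, points those in the upper 50% of mean signal, and the dashed line the median of all genes, −0.13. The short arm is lowest at −0.48, chromosome 14 next at −0.38, the long arm stands at −0.09 and chromosome 22 is highest at 0.30.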

How the data were processed

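Total RNA of 143B cells was made into stranded mRNA libraries, 3 VC and 3 KO. The submitters' processing notes name CASAVA, STAR, Partek and the build GRCh38.p13, and the gene annotation and counting settings are not given in the sources used here. The authors deposited 1 table of quantile-normalized log2 signals per gene and library, on which a missing value is an empty cell. Depth cannot be read from it, and precision rests on 3 libraries a group. The table's fold changes and p-values were not used.

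The genes with 2 or more values in VC and in KO were tested with limma 3.58.1 in R 4.3.3 (moderated test, missing values dropped, Benjamini-Hochberg over 19306 genes, threshold 0.05), checked first on simulated data. Blocks along the chromosome were the piecewise constant fit of least absolute deviation with at least 10 members a block and a penalty per border of the mean absolute deviation times the natural log of the number of members. The upper 50% of signals was taken over the mean of the 6 libraries. Named genes are the role lists, the ends and borders of arms and blocks, and the 3 members with the highest and the 3 with the lowest difference in each block, among those with 6 values in the upper 50% of signals. Others were named after their values were seen. NARS was listed under an older symbol than the list used. Chromosome 18, its border rows and the lists were chosen with earlier results of these data known. Alternatives were median-centred libraries, 1 added to the linear signal, the upper 50% of signals, genes with 6 values, the replicate number as a block, each library left out, other settings of limma and of the blocks, and, added after the data were seen, each KO library alone. Replicate numbers are shared by VC and KO, but deviations of same-numbered libraries correlated by 0.02, 0.01 and −0.01 only. A gene of the chromosome is not reported by name here.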

Additional observations from a re-analysis of the deposited data

How the results depend on the processing

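The medians of both arms and both blocks stayed below 0 under every alternative run. Relative to all genes tested, the long arm stood at 0.03 in the reported analysis and at −0.00096 to 0.05 over the alternatives. The value below 0 came with 1 added to the linear signal. The median of the short arm minus that of the long arm was −0.39 in the reported analysis and −0.39 to −0.07 over 11 alternatives. The smallest value came with 1 added to the linear signal, where the medians were −0.0959 for the short arm, −0.0236 for the long arm, −0.195 for the first block and −0.0236 for the second. With median-centred libraries the long arm stood at −0.00675 and the second block at −0.0137, and all genes at −0.04.

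The number of blocks and the border depended on the choices. There were 4 blocks with 1 added (15 members before the first border), 6 with the penalty lowered (15 members), 1 with it raised and 4 with least squares (18 members). The first border followed 29 members in the upper 50% of signals, the same number there with 6 values and 1 added, 67 in KO 1 alone, 15 in KO 2 alone and 88 in KO 3 alone, where there were 3 blocks and the first border lay on the long arm. The cause of these shifts was not tested.

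Counts of calls depended most on single libraries. Of all genes 1223 to 8669 passed with 1 library left out, 13 to 96 members fell and 9 to 38 rose. The members that fell and rose were 21 and 9 without VC 1, 36 and 21 without VC 2, 13 and 11 without VC 3, 96 and 38 without KO 1, 60 and 22 without KO 2, and 27 and 16 without KO 3. A change of at least 2-fold as a further condition left 1840 genes, 26 members that fell and 10 that rose. With the replicate number as a block 1533 genes passed, 16 members fell and 10 rose. The replicate numbers share only a name, and 3 of 6 libraries correlated best with the library of their own number.

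For the 74 named genes 789 values were recomputed, of which 767 stayed within the spread between replicates, 22 moved further and 0 reversed. Of the 34 that passed, 13 still passed without VC 1, 17 without VC 2, 9 without VC 3, 32 without KO 1, 26 without KO 2, 17 without KO 3, 8 with the replicate block and 31 with median-centred libraries. With 3 libraries a group and no read totals, differences of genes near the bottom of the scale are the least certain.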

Other observations

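Some rows of chromosome 18 had values in one group only and could not be members. On the long arm 4 rows had at least 2 KO values and none in VC, and on the short arm there was none of this kind. LINC01630 was listed at −4.42, −3.69 and −4.37 in KO 1, KO 2 and KO 3, LOC105372106 at −6.24, −5.93 and −7.21, and LOC105372212 at −6.67, −6.66 and −6.64. CDH20, a cadherin, was listed at −9.18 and −9.19 in KO 2 and KO 3. The reverse, at least 2 VC values and none in KO, was found for 12 rows, 4 of the short arm and 8 of the long arm. LOC105371976, at −6.64, −4.99 and −6.73 in VC 1, VC 2 and VC 3, was the one of the short arm with 3 values, and ST8SIA3, a sialyltransferase gene of the long arm, was listed at −9.08 and −9.05 in VC 1 and VC 2. These levels lie near the bottom of the scale, where an empty cell may be a matter of depth, which was not given.

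Cut into runs of 20 members, the same differences from which the blocks were drawn varied as follows, as a description only. The first run, USP14 to LOC104968399, had a median difference of −0.69, the second, MYL12B to RAB12, −0.21, and the third, GACAT2 to MPPE1, −0.56. The fourth, LOC101927511 to MC2R, had −0.31. The next 7 runs, down to LOC101927322 on the long arm, lay between −0.11 and 0.04. The 3 full runs after them, from MALT1 to SLC66A2, lay between −0.33 and −0.28.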
